A study of Mus musculus with 4 samples.

Results

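The cyclins of G1, S phase and mitosis were examined in brain myeloid cells collected 1 day after a single antibody dose. The set held the 9 genes listed under the symbols Ccnd1, Ccnd2, Ccnd3, Ccne1, Ccne2, Ccna2, Ccnf, Ccnb1 and Ccnb2, of 19737 genes in the deposited matrix, and all 9 passed the filter on low counts. The study asked how ATV:4D9, a TREM2-activating antibody carried into the brain by a transferrin receptor-binding Fc domain (ATV, antibody transport vehicle), changed microglia in mice with and without amyloid pathology. Every mouse carried the human transferrin receptor knock-in (hTfR-KI) that ATV binds, so that no group tested ATV in mice without it. WT hTfR-KI mice received either the isotype control ATV or ATV:4D9. APP/SAA hTfR-KI mice (AppSAA), homozygous for a knock-in App allele with amyloid-driving mutations, received isotype control ATV, 4D9 without the transport Fc (4D9), or ATV:4D9. All doses were 10 mg/kg, given intravenously. There were 4 mice in each of the 5 groups, and 1 mouse of the WT isotype group was recorded as female while the other mice were male. The cell annotation names the isotype antibody ATV:DNP02, which was read here as the isotype control because it is the remaining treatment of the design.

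Cyclins are the regulatory partners of cyclin-dependent kinases (CDKs), and their mRNAs and proteins appear in a fixed order through the cell cycle. D cyclins respond to growth signals and work with CDK4 and CDK6 in G1, E cyclins work with CDK2 at the entry into S phase, cyclin A2 acts through S phase and G2, and B cyclins work with CDK1 to start mitosis. Cyclin F is not a CDK partner but the substrate-binding subunit of a ubiquitin ligase, with mRNA that peaks in G2. In the adult brain, microglia divide slowly at rest and can enter the cycle when they are activated.

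In the mouse annotation of build GRCm38 (mm10, GENCODE vM21), Ccnd1 spans chr7:144929931-144939925, Ccnd2 chr6:127125162-127152193, Ccne1 chr7:38097984-38107534, Ccna2 chr3:36564865-36572150, Ccnf chr17:24222198-24251484, Ccnb1 chr13:100778650-100786570 and Ccnb2 chr9:70407692-70421547, all on the minus strand. Ccnd3 spans chr17:47505051-47599691 and Ccne2 chr4:11191351-11204779, both on the plus strand. The annotation also lists Ccnb1-ps, Ccnb2-ps and Ccnd3-ps, so reads that match a gene and its copy equally well are a source of uncertainty for Ccnb1, Ccnb2 and Ccnd3.

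RefSeq promoter windows in build GRCm38.p6 were at hand for 5 of the 9 genes. The 250 bases before the start site of 4 of them are shown, 5′ to 3′ on the gene's own strand, because they set the E-type gene beside the late-cycle genes whose mRNA is described below. In Ccne1 (chr7:38107491-38107740, minus strand) the capitals mark the E2F core GGCGCGA or GGCGGGA. In Ccnf (chr17:24251410-24251659, minus strand), Ccnb1 (chr13:100786487-100786736, minus strand) and Ccnb2 (chr9:70421555-70421804, minus strand) they mark the CCAAT box CCAAT, bound by NF-Y, and the CHR element TTTGAA, known from genes of G2 and mitosis.
Ccne1: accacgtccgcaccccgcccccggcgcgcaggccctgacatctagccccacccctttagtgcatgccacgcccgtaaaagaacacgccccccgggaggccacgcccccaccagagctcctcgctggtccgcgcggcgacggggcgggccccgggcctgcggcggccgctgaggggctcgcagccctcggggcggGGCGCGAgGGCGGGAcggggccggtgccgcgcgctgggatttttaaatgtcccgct
Ccnf: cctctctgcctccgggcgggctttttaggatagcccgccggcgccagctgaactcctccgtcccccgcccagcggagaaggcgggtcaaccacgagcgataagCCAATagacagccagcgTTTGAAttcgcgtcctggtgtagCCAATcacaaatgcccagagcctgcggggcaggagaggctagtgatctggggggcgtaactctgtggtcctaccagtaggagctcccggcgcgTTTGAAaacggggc
Ccnb1: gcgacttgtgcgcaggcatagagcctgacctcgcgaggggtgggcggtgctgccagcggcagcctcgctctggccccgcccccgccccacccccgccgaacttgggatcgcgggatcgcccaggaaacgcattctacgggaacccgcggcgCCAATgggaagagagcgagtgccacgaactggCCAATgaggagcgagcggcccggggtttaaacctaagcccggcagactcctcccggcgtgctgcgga
Ccnb2: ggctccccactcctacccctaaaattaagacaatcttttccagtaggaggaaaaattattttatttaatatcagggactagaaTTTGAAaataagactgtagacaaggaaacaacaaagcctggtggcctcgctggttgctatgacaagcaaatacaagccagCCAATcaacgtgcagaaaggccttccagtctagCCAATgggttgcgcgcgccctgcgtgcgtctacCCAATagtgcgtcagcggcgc

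The Ccne1 window held 2 E2F cores, starting 56 and 48 bases before the start site, and no CCAAT or TTTGAA. The Ccnb2 window held 3 CCAAT boxes, at 87, 54 and 21 bases, with 1 TTTGAA at 167 bases. The Ccnf window held 2 CCAAT boxes, at 147 and 107 bases, with TTTGAA at 130 and 14 bases, and the Ccnb1 window held 2 CCAAT boxes, at 99 and 67 bases. Of the 2 Ccnd3 windows, 1 held a CCAAT box, at 108 bases. Searched on both strands of 32817 windows of the same length, an E2F core was found in 11.7%, CCAAT in 33.8%, 2 or more CCAAT in 10.1% and TTTGAA in 16.0%. The GGCGGGA core contains the letters GGCGGG of the GC box, so that these motifs overlap. These are matches of letters only, other forms of these motifs were not searched, and no binding was measured.

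The files held 74758 cells, with 2193 to 6126 cells and 17150296 to 102446549 UMIs (unique molecular identifiers, each 1 captured mRNA molecule) per mouse. The cells came from 4 pools, each with 1 mouse of every group. Cells of the ATV:4D9 groups held more RNA counts. The median was 15338 UMIs per cell in WT and 15523 in AppSAA mice given ATV:4D9 (means of 4 mice), against 7566, 9339 and 9741 in WT isotype, AppSAA isotype and AppSAA 4D9 mice. Of 74212 barcode sequences, 543 occurred in more than 1 pool and none in more than 1 mouse of a pool. The 7 microglial markers summed to 12199 to 22746 CPM in every mouse (counts-per-million, a gene's UMIs scaled to all UMIs of the mouse). They were lower under ATV:4D9 (15076 to 16214 CPM in WT and 12199 to 13637 in AppSAA) than under isotype control (21665 to 22746 and 14512 to 16933). The lymphocyte list, which holds cells that can divide, summed to at most 0.855 CPM, and its 5 genes were too low to test, and of the other cell types the oligodendrocyte lineage list had the highest sum, at up to 71.0 CPM. The endothelial list was lower under ATV:4D9 than under isotype control (9.49 to 12.9 against 18.3 to 24.4 CPM in WT and 13.2 to 25.9 against 37.5 to 52.2 in AppSAA mice). The oligodendrocyte lineage and neuron lists were also lower in WT mice (34.1 to 46.3 against 57.8 to 71.0 CPM and 0.479 to 0.857 against 1.12 to 1.77 CPM), and both overlapped in AppSAA mice. The monocyte list had a higher sum in AppSAA mice (9.28 to 12.8 against 3.74 to 8.73 CPM), although of its 3 genes 1 passed as higher and 2 as lower (median log2 fold change -0.86), and its sums overlapped in WT mice. Of all cells, 11 had more counts from markers of another type than from microglial markers. The part of depth and of these marker levels in the results below was not tested.

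In WT mice all 9 cyclins were higher 1 day after ATV:4D9 than after isotype control, by unequal amounts. The E cyclins rose most, followed by cyclin A2, cyclin F and the B cyclins, and the D cyclins rose least. All 9 passed edgeR's quasi-likelihood test with Benjamini-Hochberg adjustment over 14058 genes at 0.05, and for all 9 the groups of 4 mice did not overlap. ATV:4D9 changed many genes: 63.3% of those tested passed, 30.8% in the higher and 32.5% in the lower direction, and 57% did not overlap. The median log2 fold change was 2.75 over the 9 cyclins and -0.05 over all genes tested. Scaled by UMIs per cell in place of total counts, the log2 fold changes of the 9 cyclins were larger, at 1.95 (Ccnd1) to 5.67 (Ccne1), with 2.34 for Ccnd2 and 2.87 for Ccnb2, and the median of all genes was 0.79. A value summed over all cells of a mouse cannot tell more cells with a transcript from more transcript per cell.

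Ccnd1, the main D cyclin of these cells and a link between growth signals and the cycle, measured 212, 130, 142 and 176 CPM in the 4 WT isotype mice. It measured 323, 284, 345 and 343 CPM in the 4 WT ATV:4D9 mice (log2 fold change 1.09, SE 0.15, adjusted p = 3.97e-06). The lowest treated mouse lay above the highest control mouse. Ccnd3, the D cyclin known for lymphoid cells, measured 29.0, 32.9, 30.3 and 39.8 CPM against 92.2, 71.0, 72.9 and 68.8 CPM (log2 fold change 1.33, SE 0.15, adjusted p = 2.19e-07). Ccnd2, another D cyclin, was near the limit of detection, at 0.525 to 1.55 CPM under isotype control and 1.85 to 2.99 CPM under ATV:4D9 (log2 fold change 1.51, SE 0.36, adjusted p = 9.95e-04). Ccnd1 and Ccnd3 were thus already present in control mice, at 165 ± 37.0 and 33.0 ± 4.82 CPM (SD, n = 4).

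The E cyclins, which drive CDK2 at the start of DNA replication, started from low levels. Ccne1 measured 1.98, 1.22, 1.64 and 1.66 CPM under isotype control and 50.3, 42.6, 40.7 and 37.4 CPM under ATV:4D9. This was 28.8-fold higher (log2 fold change 4.85, SE 0.19, adjusted p = 1.32e-14). Ccne2 behaved alike, at 2.62, 1.61, 2.40 and 2.58 CPM against 62.8, 64.6, 59.8 and 54.5 CPM, 28.4-fold higher (log2 fold change 4.83, SE 0.18, adjusted p = 1.01e-14). Every treated mouse lay far above every control mouse for both genes.

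Ccna2, the cyclin of S phase and G2, measured 1.69, 1.17, 3.07 and 2.26 CPM under isotype control and 30.2, 20.7, 24.3 and 22.5 CPM under ATV:4D9, 13.0-fold higher (log2 fold change 3.70, SE 0.24, adjusted p = 4.43e-11). Ccnf, the ubiquitin ligase subunit, went from 2.03 ± 0.458 to 14.3 ± 1.34 CPM (SD, n = 4; log2 fold change 2.92, SE 0.14, adjusted p = 5.53e-13). Ccnb1, which activates CDK1 at the entry into mitosis, measured 0.700, 0.586, 2.56 and 1.41 CPM against 11.3, 6.06, 6.78 and 8.20 CPM, 6.74-fold higher (log2 fold change 2.75, SE 0.30, adjusted p = 1.33e-07). Ccnb2, the other mitotic B cyclin, measured 1.05, 1.12, 2.92 and 2.26 CPM against 9.15, 6.09, 6.63 and 6.54 CPM, 4.18-fold higher (log2 fold change 2.06, SE 0.24, adjusted p = 2.98e-07). The mice of both groups stayed apart for these genes too, but the control mice were spread more widely for the B cyclins, with replicates 3 and 4 above replicates 1 and 2.

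**Figure D1:**
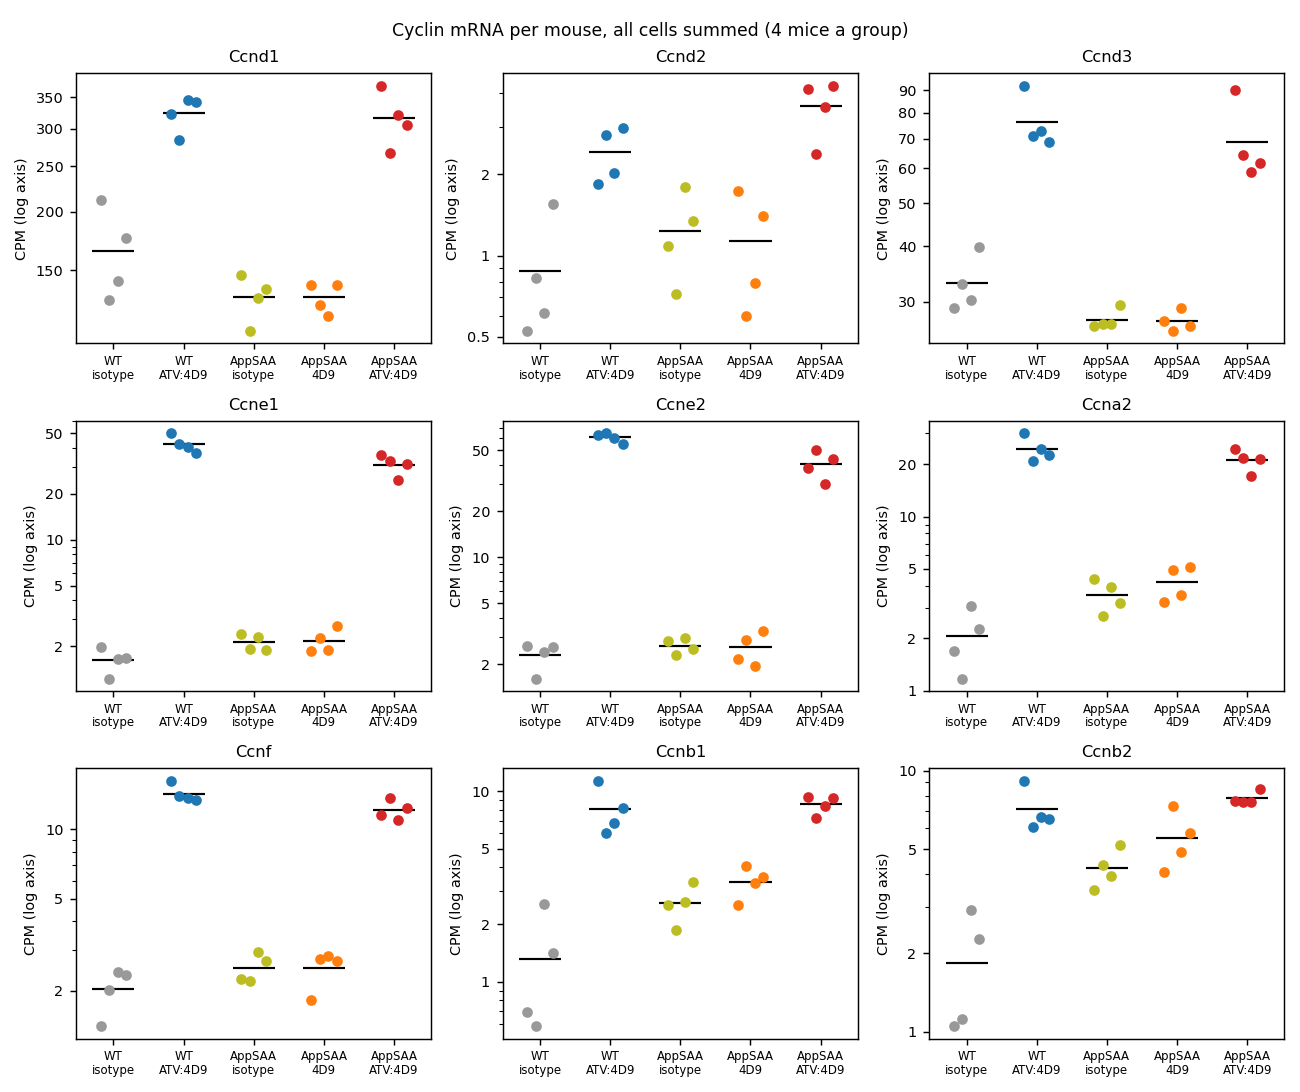
Each panel plots one cyclin in CPM (log axis), all cells of a mouse summed, with 1 point per mouse, 4 mice in each of 5 groups and a line at the group mean. The ATV:4D9 mice of each genotype lie above the isotype and 4D9 mice of the same genotype in all 9 panels, by the widest margin for Ccne1 and Ccne2 and by the narrowest for Ccnb2 in AppSAA mice.

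In AppSAA mice the E cyclins again changed most, followed by Ccna2 and Ccnf, while the change of Ccnb2 was smaller than that of the D cyclins. All 9 cyclins were higher under ATV:4D9 than under isotype control and none overlapped, where 55.1% of genes passed the test, 27.9% in the higher direction, and 47.7% did not overlap. The median log2 fold change was 1.80 over the 9 genes and -0.03 over all genes. Scaled by UMIs per cell, the 9 values ran from 1.44 (Ccnb2) to 4.49 (Ccne2) and the median of all genes was 0.47. Ccnd1 measured 147, 111, 131 and 137 CPM against 371, 267, 322 and 305 CPM (log2 fold change 1.35, SE 0.15, adjusted p = 4.11e-07), and Ccnd3 went from 27.4 ± 1.43 to 68.7 ± 14.6 CPM (SD, n = 4; log2 fold change 1.42, SE 0.15, adjusted p = 1.35e-07). Ccnd2 had a log2 fold change of 1.61 (SE 0.31, adjusted p = 1.81e-04).

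Ccne1 measured 2.39, 1.93, 2.30 and 1.90 CPM in the AppSAA isotype mice and 35.8, 32.7, 24.6 and 31.6 CPM in the AppSAA ATV:4D9 mice, 15.6-fold higher (log2 fold change 3.96, SE 0.16, adjusted p = 1.10e-13). Ccne2 measured 2.83, 2.30, 2.97 and 2.51 CPM against 38.1, 49.9, 30.2 and 43.7 CPM, 16.1-fold higher (log2 fold change 4.01, SE 0.16, adjusted p = 9.32e-14). Ccna2 was 6.34-fold higher (log2 fold change 2.66, SE 0.20, adjusted p = 1.28e-09) and Ccnf 5.04-fold higher (log2 fold change 2.33, SE 0.13, adjusted p = 5.70e-12). The B cyclins changed least among the cyclins of S phase and later. Ccnb1 measured 2.53, 1.88, 2.62 and 3.32 CPM against 9.30, 7.25, 8.37 and 9.22 CPM (log2 fold change 1.80, SE 0.25, adjusted p = 6.21e-06). Ccnb2 measured 3.50, 4.36, 3.96 and 5.17 CPM against 7.67, 7.55, 7.58 and 8.51 CPM, 1.94-fold higher (log2 fold change 0.95, SE 0.20, adjusted p = 5.65e-04), and the treated mice lay close together above all controls.

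The 4D9 antibody without the transport Fc, at the same dose and time, gave no cyclin difference that passed the test against isotype control. Log2 fold changes over the 9 genes ran from -0.17 to 0.39, with a median of 0.02, and 0 of 9 passed and 0 of 9 were non-overlapping, where 0.654% of genes did not overlap. With edgeR 0 of 14058 genes passed, 79 (0.562%) had an unadjusted p under 0.05, DESeq2 called 1 gene and limma-voom 0. With the pool as a block 0 genes passed as well. That share of unadjusted p values lies far below the 0.05 awaited when no gene differs, so the main test was cautious in this comparison. The main fit left out the pool, although mice of the same pool resembled each other, and the part of this was not tested. The largest of the 9, Ccnb2, measured 4.11, 7.33, 4.86 and 5.79 CPM under 4D9 (log2 fold change 0.39, 95% interval -0.05 to 0.82), and for Ccne1, at 1.85, 2.24, 1.88 and 2.72 CPM, the interval of the log2 fold change was -0.32 to 0.42. The 2 forms of the antibody differ by the transferrin receptor-binding site in the Fc. Compared directly, all 9 cyclins were higher under ATV:4D9 than under 4D9 and none overlapped, where 54.3% of genes passed, 27.6% in the higher direction, and 46.9% did not overlap. Ccne1 was 15.0-fold higher (log2 fold change 3.91, SE 0.17, adjusted p = 1.74e-13), Ccna2 5.25-fold (log2 fold change 2.39, SE 0.20, adjusted p = 6.36e-09) and Ccnb1 2.66-fold (log2 fold change 1.41, SE 0.25, adjusted p = 9.64e-05). For Ccnb2 the ratio was 1.48 (log2 fold change 0.56, SE 0.20, adjusted p = 0.0244). Without 4D9 replicate 1, 4D9 replicate 3 or ATV:4D9 replicate 1, each left out in turn, this last difference lost its call, with adjusted p values of up to 0.0813. Scaled by UMIs per cell its log2 fold change was 1.02. These comparisons share the AppSAA ATV:4D9 mice with the comparison against isotype control.

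Without TREM2 antibody, the later cyclins were higher in AppSAA than in WT mice. Under isotype control, 5 of the 9 cyclins were higher in AppSAA than in WT mice and none was lower, where 28.2% of genes passed, 14.4% in the higher direction. The median log2 fold change was 0.57 over the 9 cyclins and -0.06 over all genes. Ccnb2 was 2.61-fold higher (log2 fold change 1.38, SE 0.24, adjusted p = 2.14e-04), Ccnb1 2.24-fold (log2 fold change 1.16, SE 0.32, adjusted p = 0.00878), Ccna2 1.95-fold (log2 fold change 0.96, SE 0.25, adjusted p = 0.00585), Ccnf 1.40-fold (log2 fold change 0.48, SE 0.15, adjusted p = 0.0189) and Ccne1 1.49-fold (log2 fold change 0.57, SE 0.21, adjusted p = 0.0421). Ccnb2 was also the 1 gene of the 9 whose groups did not overlap, where 40% of all genes did not. Ccne2 (0.39, adjusted p = 0.149), Ccnd2 (0.63, adjusted p = 0.222), Ccnd1 (-0.15, adjusted p = 0.509) and Ccnd3 (-0.09, adjusted p = 0.713) did not pass, on the log2 fold change scale. The Ccne1 call was lost in 6 of 20 fits that each left out 1 mouse (without AppSAA isotype replicate 1, 2 or 3, or WT isotype replicate 2, 3 or 4), with adjusted p of up to 0.131, and the Ccnf call in 2 (without AppSAA isotype replicate 3 or WT isotype replicate 1), with up to 0.0611. Without AppSAA isotype replicate 3 the count was 3 of 9. With limma-voom it was also 3 of 9, where 3738 genes passed in place of 3960. With scaling by UMIs per cell it was 6, since Ccne2 passed (0.62, adjusted p = 0.0403), where 3431 genes passed.

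**Figure D2:**
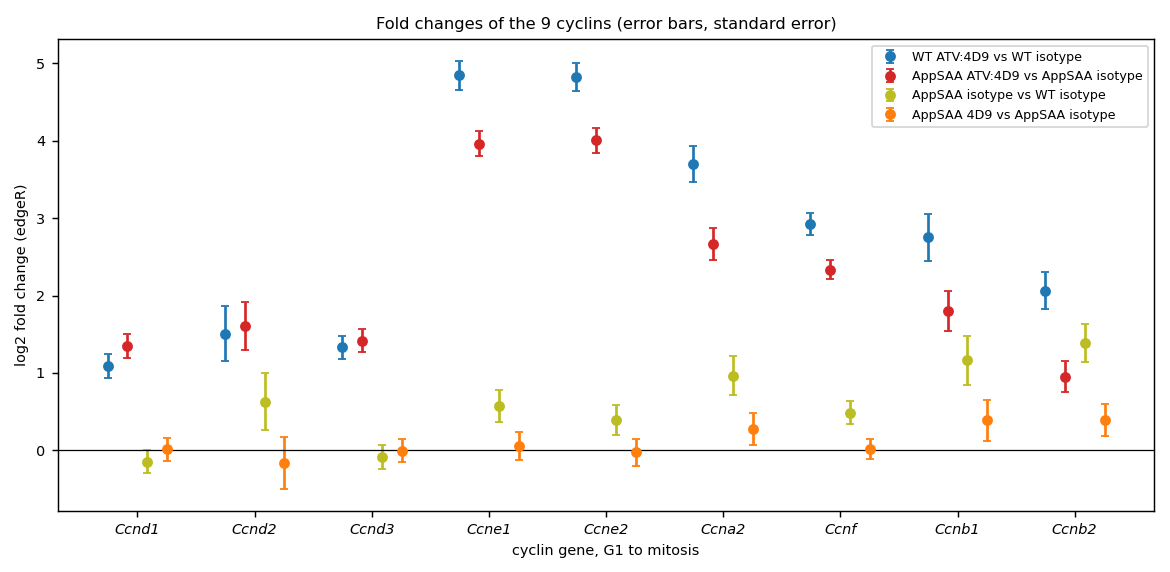
Log2 fold changes of the 9 cyclins (vertical axis) from the edgeR fit on summed counts, with standard errors as bars, for ATV:4D9 against isotype control in WT and AppSAA mice, AppSAA against WT under isotype control, and 4D9 against isotype control in AppSAA mice. The ATV:4D9 changes peak at the E cyclins (4.85 for Ccne1 in WT) and fall toward the B cyclins, while the genotype difference under isotype control is highest at Ccnb2 (1.38).

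Between the ATV:4D9 groups of both genotypes, Ccne2 was lower in AppSAA than in WT mice (log2 fold change -0.44, SE 0.14, adjusted p = 0.0405), and it was the 1 of 9 cyclins to pass, where 11.8% of genes passed, 3.98% in the lower and 7.84% in the higher direction. Its values of 38.1, 49.9, 30.2 and 43.7 CPM lay below all WT values. The groups did not overlap for Ccne1 either (log2 fold change -0.31, SE 0.14, adjusted p = 0.168), so 2 of 9 cyclins did not overlap, against 22.2% of genes. With the pool as a block, 3 of 9 passed, Ccne1 (-0.31, adjusted p = 0.00474) and Ccne2 (-0.45, adjusted p = 0.00202) lower and Ccnd2 (0.69, adjusted p = 0.0304) higher, on the log2 scale, where the block called 31.4% of all genes. Without the block Ccnd2 did not pass (log2 fold change 0.73, 95% interval 0.12 to 1.33, adjusted p = 0.118). For Ccnd1, Ccnd3, Ccna2, Ccnf, Ccnb1 and Ccnb2 the 95% interval of the log2 difference held 0, such as -0.29 to 0.70 for Ccnb1 and -0.45 to 0.31 for Ccna2. The Ccne2 call was lost in 6 of 20 fits that each left out 1 mouse (ATV:4D9 replicates 1, 3 and 4 of AppSAA and 1, 2 and 3 of WT), with adjusted p of up to 0.159. The count fell to 0 of 9 in 5 of those fits, and with no low-count filter and with scaling per cell.

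Whether the response to ATV:4D9 itself differed between genotypes was tested as an interaction, the log2 fold change in AppSAA minus that in WT. Ccne1 (log2 fold change -0.88, SE 0.25, adjusted p = 0.0273), Ccne2 (log2 fold change -0.82, SE 0.24, adjusted p = 0.0325), Ccna2 (log2 fold change -1.03, SE 0.31, adjusted p = 0.0397) and Ccnb2 (log2 fold change -1.11, SE 0.32, adjusted p = 0.0299) had a smaller fold change in AppSAA mice, 4 of 9 where 9.14% of genes passed, 5.35% with a negative and 3.79% with a positive value. The median was -0.82 over the 9 genes and 0.04 over all genes. Ccnf missed the threshold (-0.59, adjusted p = 0.0543) and passed with RLE size factors (-0.63, adjusted p = 0.0422), DESeq2 (-0.63, adjusted p = 0.0255), scaling by UMIs per cell (-0.93, adjusted p = 0.0312) and the pool as a block (-0.59, adjusted p = 0.0282). The block called 30.5% of all genes. Ccnb1 did not pass (-0.95, adjusted p = 0.155). The values for Ccnd1, Ccnd2 and Ccnd3 were 0.26, 0.10 and 0.09, and none passed. Since the fold change is taken against each genotype's own isotype group, the higher control levels of AppSAA mice enter it. With limma-voom 1 of 9 passed, Ccnb2, where 1214 genes passed in place of 1285. The calls also depended on single mice, since the count ran from 0 to 5 of 9 when each mouse was left out, with 0 without WT isotype replicate 2, 1 without AppSAA isotype replicate 1 or 3 or WT ATV:4D9 replicate 1, and 2 without AppSAA ATV:4D9 replicate 2 or 3 or WT isotype replicate 1 or 4.

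The deposited annotation places each cell in 1 of 6 clusters and in 1 of 9 finer clusters. Cluster numbers are used here, and since the clustering used the expression of these cells, differences between clusters are given without a test. Tests between groups inside a cluster are conditional on that assignment of cells. Summed per mouse and cluster (at least 20 cells), the cyclins of S phase and later were highest in cluster 4 of the coarser set in each of the 4 groups with such mice there. In cluster 4 the groups differed. Ccne1 had means of 82.9 and 91.1 CPM in WT and AppSAA ATV:4D9 mice, against 42.7 and 42.9 CPM in AppSAA isotype and AppSAA 4D9 mice. Ccnb2 was the other way round, at 15.2 and 27.0 CPM under ATV:4D9 against 200 and 214 CPM, as was Ccna2, at 52.5 and 72.0 against 152 and 148 CPM. No WT isotype mouse had 20 cells there. In the other 5 clusters the group means were at most 20.6 CPM for Ccne1, 5.09 for Ccna2 and 3.44 for Ccnb2. Clusters 2 and 5 held intermediate Ccne1 levels under ATV:4D9, with means of 10.8 and 20.6 CPM in WT and 11.5 and 9.34 CPM in AppSAA mice, against at most 1.96 CPM in clusters 0, 1 and 3. In AppSAA isotype mice Ccne1 measured 10.5 CPM in cluster 2 and 0.625 CPM in cluster 5. Ccnd1 had its lowest mean in cluster 1 in each group (69.5 to 124 CPM, the latter from 1 WT ATV:4D9 mouse). Its highest mean lay in cluster 5 under ATV:4D9, at 622 CPM in WT and 421 CPM in AppSAA mice, and in cluster 2 in AppSAA isotype (258 CPM) and AppSAA 4D9 mice (219 CPM).

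The finer set divided cluster 4 mainly into finer clusters 4 and 7, which carried different cyclins. Finer cluster 4 had E cyclins at medians of 59.7 (Ccne1) and 92.7 CPM (Ccne2) with Ccna2 at 26.4, Ccnf at 12.1, Ccnb1 at 4.88 and Ccnb2 at 1.26 CPM. Only the 8 ATV:4D9 mice had 20 or more cells in finer cluster 4, and no WT isotype mouse had 20 in finer cluster 7. In finer cluster 7 the ATV:4D9 mice carried all of these cyclins, with means in WT and AppSAA mice of 149 and 130 CPM for Ccne1, 175 and 145 for Ccne2, 136 and 142 for Ccna2, 84.4 and 84.5 for Ccnf, 51.2 and 66.9 for Ccnb1 and 56.4 and 70.9 CPM for Ccnb2. Under ATV:4D9, finer cluster 7 held 89.1% of all Ccnb2 UMIs of a WT mouse on average and 87.8% of those of an AppSAA mouse, but 38.9% and 40.7% of the Ccne1 UMIs. Finer cluster 4 held 48.6% and 38.7% of the Ccne1 UMIs and 5.27% and 3.46% of the Ccnb2 UMIs. Ccne transcripts were thus spread over both finer clusters, and Ccnb2 transcripts lay nearly all in one.

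**Figure D3:**
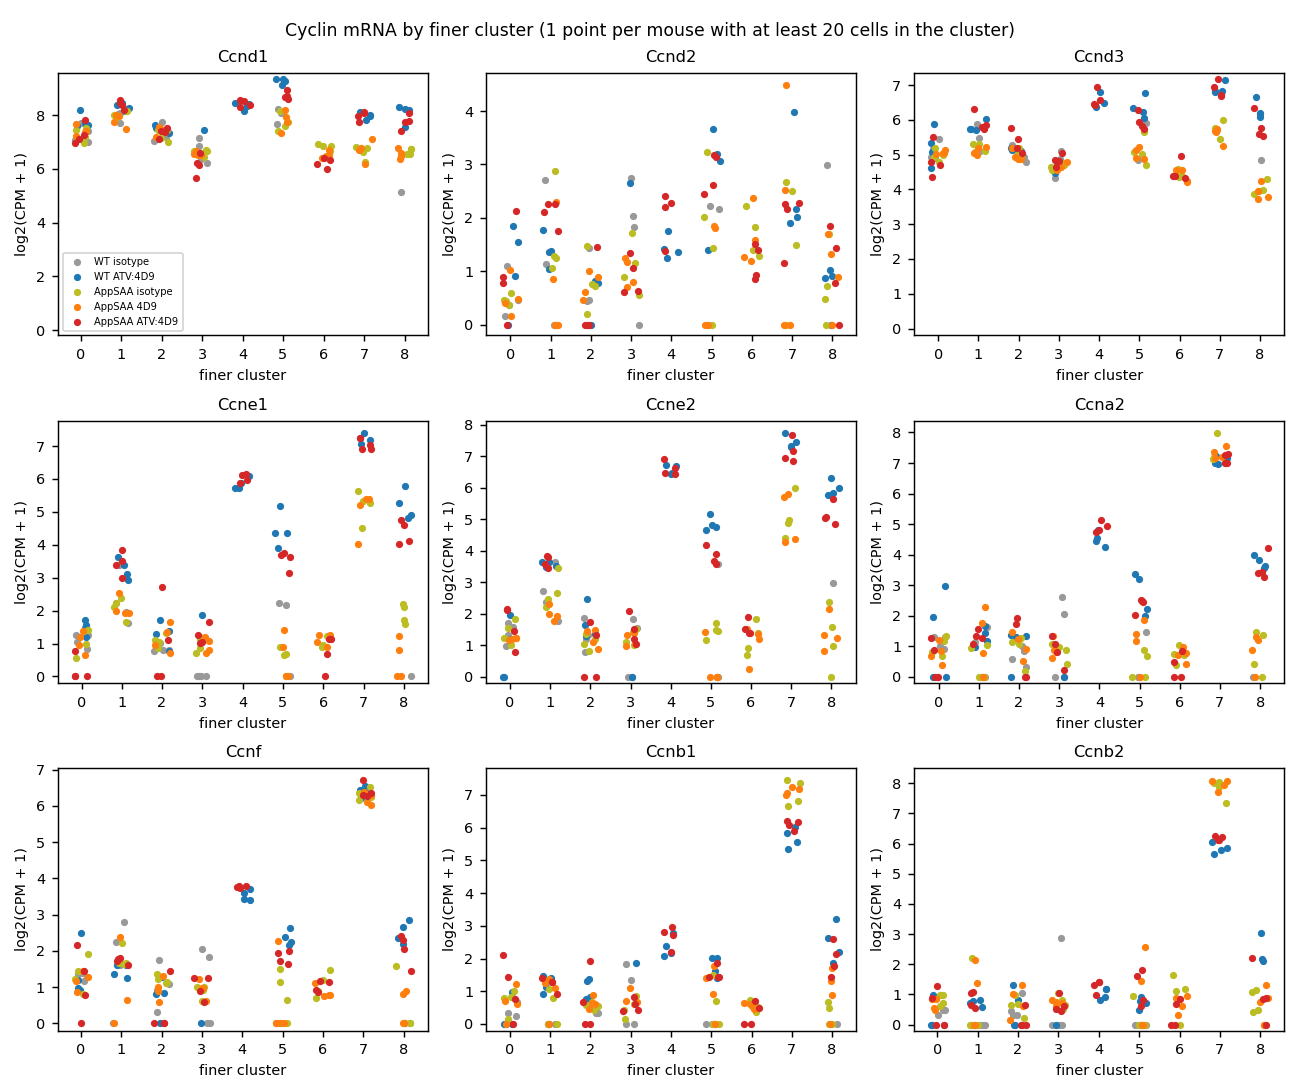
Each panel plots log2(CPM + 1) of one cyclin in the 9 finer clusters, with 1 point per mouse with at least 20 cells, colored by group. Ccne1 and Ccne2 are high in finer clusters 4 and 7, Ccna2 and Ccnf are highest in 7 and intermediate in 4, Ccnb1 and Ccnb2 are high in 7, and Ccnd1 is present in all clusters.

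Inside finer cluster 7 the ATV:4D9 cells carried another mix of cyclins than the few cells of AppSAA control mice. This cluster was compared after its values had been seen, and its cells were grouped on expression that can include these genes. Ccne1 measured 39.7, 37.7, 49.0 and 22.0 CPM in the 4 AppSAA isotype mice (22, 29, 60 and 48 cells) and 131, 151, 119 and 120 CPM in the 4 AppSAA ATV:4D9 mice (326, 267, 164 and 461 cells). Its log2 fold change was 1.77 (SE 0.18, adjusted p = 2.92e-07). Ccne2 rose from a mean of 35.3 to 145 CPM (1.89, SE 0.27, adjusted p = 1.52e-05), and Ccnd1 (1.31, adjusted p = 1.01e-06) and Ccnd3 (1.19, adjusted p = 1.20e-05) were higher too. Ccnb2 went the other way, from 233, 257, 162 and 259 CPM to 67.8, 73.2, 74.6 and 68.2 CPM (log2 fold change -1.71, SE 0.14, adjusted p = 1.90e-08), and Ccnb1 from 173, 111, 99.3 and 162 to 70.5, 58.3, 72.5 and 66.2 CPM (-1.02, SE 0.17, adjusted p = 9.16e-05). The groups did not overlap for 6 of the 9 cyclins, Ccnd1, Ccnd3 and the E and B cyclins, where 23.9% of genes did not overlap. In all, 6 of 9 cyclins passed, where 22.7% of genes did, 12.3% higher and 10.4% lower. Ccna2 (-0.20, adjusted p = 0.397), Ccnf (0.07, adjusted p = 0.730) and Ccnd2 (-0.18, adjusted p = 0.916) did not.

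The count stayed at 6 of 9 with the pool as a block, which called 28.4% of genes, and in each of the 8 fits without 1 mouse. With at least 50 cells per mouse this comparison could not be fitted. The AppSAA 4D9 mice, with 21 to 48 cells, had means of 33.3 CPM for Ccne1 and 247 CPM for Ccnb2, and the WT ATV:4D9 mice, with 287 to 468 cells, had 149 and 56.4 CPM. So the isotype and 4D9 cells of this cluster had higher levels of Ccnb2 and lower levels of Ccne1 than the ATV:4D9 cells of either genotype.

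**Figure D4:**
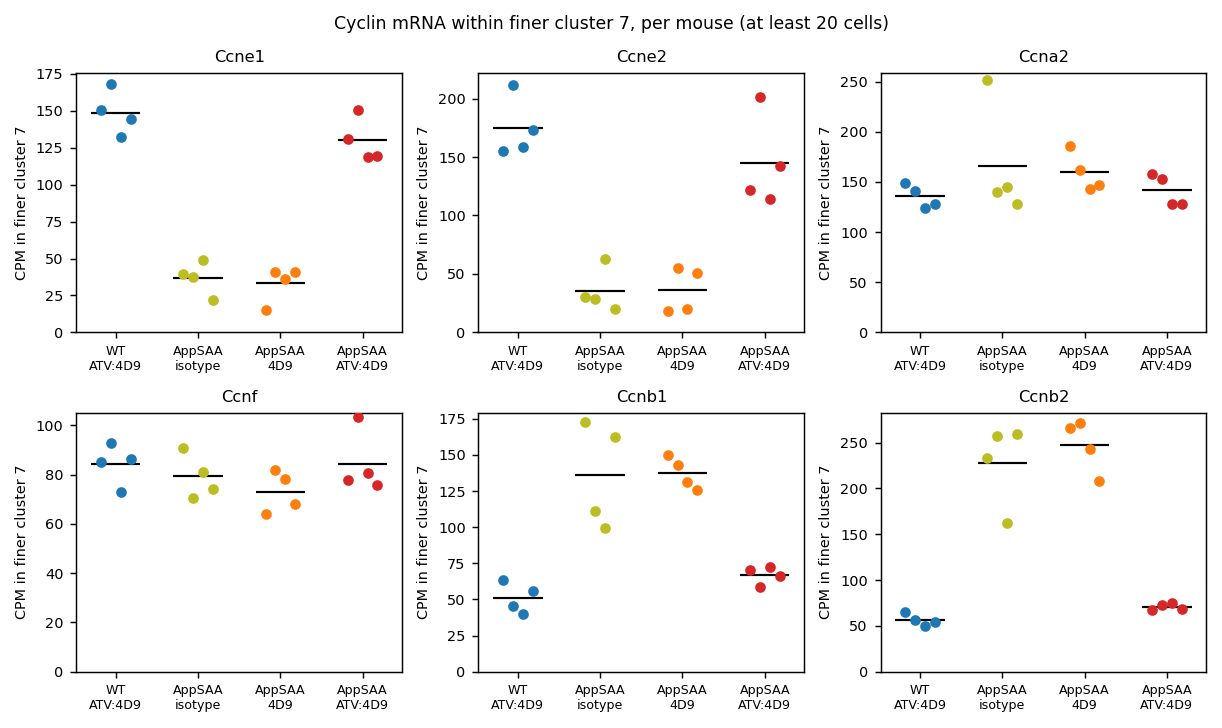
Panels of 6 cyclins within finer cluster 7 in CPM (linear axis from 0), with 1 point per mouse and a line at the mean, for the 4 groups with at least 20 cells in each mouse. Ccne1 and Ccne2 are high and Ccnb1 and Ccnb2 low in both ATV:4D9 groups, while Ccna2 and Ccnf overlap across the groups.

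Between the ATV:4D9 groups, the later cyclins of cluster 4 were higher in AppSAA mice (445 to 1862 cells per mouse). Ccnb2 measured 27.0 ± 3.20 CPM in AppSAA and 15.2 ± 2.80 CPM in WT mice (SD, n = 4; log2 fold change 0.89, SE 0.16, adjusted p = 0.00101) and Ccnb1 28.2 ± 4.02 and 16.6 ± 4.67 CPM (0.83, SE 0.18, adjusted p = 0.00588). Ccna2 (0.54, adjusted p = 0.0467) and Ccnf (0.47, adjusted p = 0.0131) were higher as well, so 4 of 9 passed where 2.76% of genes did, 2.49% in the higher direction. The D and E cyclins did not pass, with log2 differences of 0.08 to 0.39. Without AppSAA ATV:4D9 replicate 2 or WT ATV:4D9 replicate 3 the count was 2. Within finer cluster 4 (304 to 1451 cells) 0 of 9 passed where 1.49% of genes did, and in finer cluster 7 (164 to 468 cells) 0 of 9 passed where 1.79% did. With the pool as a block, 5 passed in finer cluster 4, namely Ccnd2 (0.99, adjusted p = 0.00456), Ccnd3 (0.16, adjusted p = 0.0424), Ccne1 (0.24, adjusted p = 0.00378), Ccna2 (0.47, adjusted p = 0.000592) and Ccnf (0.32, adjusted p = 0.0188), where the block called 9.15% of genes. In finer cluster 7, 2 passed with the block, Ccnb1 (0.46, adjusted p = 0.00883) and Ccnb2 (0.41, adjusted p = 0.0245), where it called 3.97%. The finer clusters make up different parts of cluster 4 in these groups. Whether this plays a part in the counts above was not tested.

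In cluster 5 the E cyclins were lower in AppSAA than in WT mice under ATV:4D9 (99 to 1071 cells per mouse). Ccne1 measured 9.34 ± 1.66 against 20.6 ± 7.52 CPM (SD, n = 4; log2 fold change -1.09, SE 0.21, adjusted p = 0.00166) and Ccne2 11.5 ± 1.90 against 24.8 ± 3.69 CPM (-1.05, SE 0.16, adjusted p = 0.000174). These were 2 of the 5 cyclins that could be tested there, where 6.87% of genes passed, 3% lower and 3.87% higher. With the pool as a block, which called 15.8% of genes there, 4 passed, with Ccnd1 (-0.49, adjusted p = 0.000253) and Ccnd3 (-0.35, adjusted p = 0.00378) added, and 4 also passed without AppSAA ATV:4D9 replicate 1. In cluster 2, the other site of intermediate E cyclin levels, 4 cyclins could be tested and 0 passed where 2.07% of genes did, with Ccne1 at 11.5 ± 2.20 CPM in AppSAA and 10.8 ± 2.09 CPM in WT mice. The count in cluster 2 was 1 when sums of at least 50 cells were required.

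In clusters 0, 1 and 3, which held cells of both treatments, ATV:4D9 gave 0 calls among the cyclins tested. Cells were grouped on expression that can include these genes, so cells that gained cyclins may have been placed in other clusters. The 0 calls are conditional on that placement and cannot show whether cells that started in these states responded. In WT mice 7 cyclins could be tested in cluster 0 and 8 in cluster 3, where 1.47% (1.02% higher and 0.453% lower) and 6.17% of genes (4.15% higher and 2.02% lower) passed. In AppSAA mice 8 could be tested in cluster 1, where 1.51% passed, 1.06% higher and 0.451% lower. Ccne1 in cluster 0 was at 1.96 ± 1.35 CPM under ATV:4D9 and 1.17 ± 0.259 CPM under isotype control, and in cluster 3 at 1.44 ± 0.612 and 0.856 ± 0.152 CPM. With the pool as a block Ccnd1 passed in each of the 3, higher in clusters 0 (0.46, adjusted p = 0.000562) and 3 (0.28, adjusted p = 0.00619) and lower in cluster 1 (-0.50, adjusted p = 0.00282), on the log2 scale. The block called 8.96%, 17.5% and 7.77% of genes in clusters 0, 3 and 1.

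Shares of cells were compared after thinning each cell to 5000 UMIs, because cells of the ATV:4D9 groups were deeper. Cells below that depth were left out, 1084 in the WT isotype, 402 in the WT ATV:4D9, 1275 in the AppSAA isotype, 961 in the AppSAA 4D9 and 587 in the AppSAA ATV:4D9 group. In the same order, 8772, 15540, 17598, 12668 and 15871 cells were kept. The share with at least 1 UMI of Ccne1 or Ccne2 was 1.94, 1.18, 1.44 and 2.01% in the WT isotype mice and 31.0, 27.9, 28.6 and 25.9% in the WT ATV:4D9 mice. It was 2.18, 1.14, 1.54 and 1.94% in the AppSAA isotype mice, 1.55, 1.43, 1.11 and 2.06% in the AppSAA 4D9 mice and 20.1, 18.3, 15.2 and 19.7% in the AppSAA ATV:4D9 mice. The ATV:4D9 mice lay above all control mice of their genotype, and all AppSAA ATV:4D9 mice lay below all WT ATV:4D9 mice. Unthinned means were 2.48%, 46.7%, 3.31%, 3.22% and 32.9% in the same order of groups. The share in cluster 0 was 1.41% in WT isotype and 1.39% in WT ATV:4D9 mice, at a median depth of 7178 UMIs per cell before thinning against 18034 in cluster 4. The shares of the isotype and 4D9 mice were close to that of cluster 0, so that no difference among these groups is read from them.

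The share of cells with a UMI of Ccna2, Ccnb1 or Ccnb2 was 1.25% ± 0.550 in WT isotype and 10.9% ± 1.73 in WT ATV:4D9 mice. It was 1.81% ± 0.293 in AppSAA isotype, 2.15% ± 0.569 in AppSAA 4D9 and 9.05% ± 0.804 in AppSAA ATV:4D9 mice (SD, n = 4). Unthinned means were 1.86%, 21.8%, 2.97%, 3.63% and 17.5%, and the cluster 0 share was 1.14% in WT isotype and 1.54% in WT ATV:4D9 mice. Most cells with an E cyclin UMI under ATV:4D9 had no UMI of the later cyclins: 21.1% ± 1.11 of all cells in WT and 13.2% ± 1.63 in AppSAA mice had E alone, against 7.27% ± 1.14 and 5.14% ± 0.828 with both. Among the cells with a Ccna2, Ccnb1 or Ccnb2 UMI, 67.1% ± 3.66 in WT and 56.7% ± 7.49 in AppSAA ATV:4D9 mice also had an E cyclin UMI. In AppSAA isotype and AppSAA 4D9 mice this was 10.2% ± 3.50 and 12.1% ± 9.94, and in the WT isotype mice it was 23.5, 28.6, 9.09 and 4.0%. These control values rest on few cells, since cells with a later cyclin UMI made up means of 1.25% to 2.15% there. At 5000 UMIs a cell can hold a transcript that was not counted, so that a cell with E alone may hold later cyclins too.

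**Figure D5:**
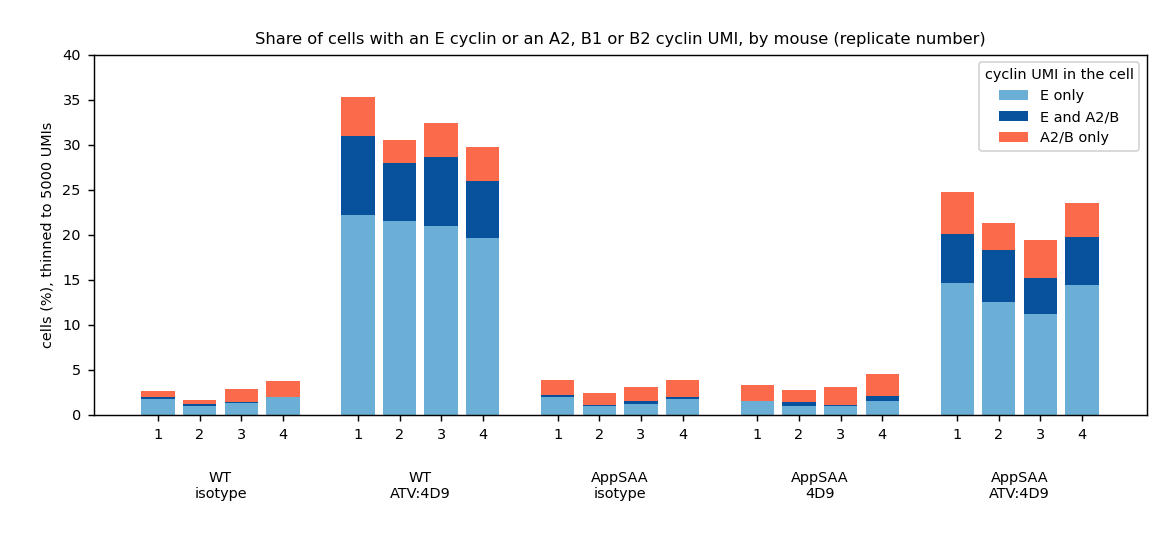
Stacked bars give, for each of the 20 mice (replicate number on the horizontal axis), the percent of cells thinned to 5000 UMIs with an E cyclin UMI only, with both an E and an A2, B1 or B2 UMI, and with an A2, B1 or B2 UMI only. E-only cells make up the largest segment in all 8 ATV:4D9 mice, at a mean of 21.1% in WT and 13.2% in AppSAA mice.

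Exact two-sided permutation tests of 4 against 4 mice can reach no p below 0.0286, which became 0.049 after Benjamini-Hochberg adjustment over the 24 tests of this family. The adjusted value depends on how many tests of the family lie at the smallest p. These tests share mice and, in part, the E cyclin UMIs, so they are not independent. The smallest adjusted value here was 0.049. Both shares reached that value for ATV:4D9 against its controls, with the E cyclin share 26.7 percentage points higher in WT mice and 16.6 points higher in AppSAA mice (exact adjusted p = 0.049 for each, higher in 4 of 4 pools). The E cyclin share was -10.0 points in AppSAA minus WT mice under ATV:4D9 (exact adjusted p = 0.049, lower in 4 of 4 pools). The difference in the share with later cyclins was -1.81 points (exact p = 0.143, adjusted p = 0.171), lower in 4 of 4 pools. The 4D9 and isotype groups differed by -0.16 points in the E cyclin share (exact adjusted p = 0.655) and by 0.34 points in the later share (exact adjusted p = 0.522).

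The balance between the cyclins was set out as log2 ratios of UMIs per mouse. The ratio of B to E cyclin UMIs was -0.47 ± 0.78 in WT isotype, 0.51 ± 0.33 in AppSAA isotype and 0.90 ± 0.26 in AppSAA 4D9 mice. It was -2.79 ± 0.30 in WT and -2.12 ± 0.29 in AppSAA ATV:4D9 mice (SD, n = 4). It was thus lower in every ATV:4D9 mouse than in every isotype mouse of its genotype (exact adjusted p = 0.049 in each genotype). The log2 ratio of E to D cyclin UMIs was -5.67 ± 0.18 in WT isotype and -1.97 ± 0.19 in WT ATV:4D9 mice, and -5.07 ± 0.14 and -2.44 ± 0.36 in AppSAA mice (exact adjusted p = 0.049 in each genotype). The same ratio was 0.60 higher in AppSAA than in WT mice under isotype control (exact adjusted p = 0.049), while the B to E ratio there differed by 0.98 (exact adjusted p = 0.121). These control ratios rest on few E cyclin UMIs, 58 to 120 per WT isotype mouse and 182 to 392 per AppSAA isotype mouse. The E cyclin share of these groups differed by 0.06 points (exact adjusted p = 0.865). Under ATV:4D9 the B to E ratio was 0.67 higher in AppSAA than in WT mice in 4 of 4 pools, which missed the threshold (exact adjusted p = 0.0914). These ratios count 3′ transcript tags, so their change between groups can be compared and their absolute level cannot be read as a ratio of proteins.

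Partners and regulators of the cyclins were taken from lists chosen for their role, and their counts stand against 30.8% of all genes higher and 32.5% lower in WT mice, and 27.9% and 27.1% in AppSAA mice. All 4 CDKs that bind these cyclins were higher under ATV:4D9 in both genotypes, with a median log2 fold change of 1.52 in WT and 1.12 in AppSAA mice. Cdk1, the mitotic kinase, changed most (3.59 in WT and 2.16 in AppSAA mice), then Cdk2 (1.56 and 1.16) and Cdk4 (1.49 and 1.09), the partners of the E and D cyclins. Of 10 genes for CDK activation and the Cks subunits, 8 were higher and 1 lower in each genotype, with medians of 1.88 and 1.46. Wee1 (4.24 and 3.17) and Pkmyt1 (3.34 and 2.77), which place inhibitory phosphates on CDK1, led the list, and Cks1b, a CDK-binding subunit, followed in WT mice (3.33 and 2.48).

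The CDK inhibitors did not move as one. Of 7, 4 were higher and 3 lower in each genotype, with medians of 0.47 and 0.48. Cdkn1a, the p21 inhibitor induced by stress and growth signals (1.86 in WT and 1.37 in AppSAA mice), Cdkn2c (2.04 and 0.90) and Cdkn2a (2.59 and 0.48) were among the higher genes. Cdkn1c (-2.09 and -1.28), which holds cells out of the cycle, and Cdkn2b (-0.72 and -1.01), an inhibitor of CDK4 and CDK6, were lower. Cdkn2b was near the limit of detection. Its means under isotype control and ATV:4D9 were 0.972 and 0.551 CPM in WT and 1.53 and 0.721 CPM in AppSAA mice. Of 12 genes for cyclin destruction, 7 were higher in each genotype, and 2 were lower in WT and 0 in AppSAA mice, with medians of 0.36 and 0.34. They included Skp2, which targets inhibitors and cyclin E (2.12 and 1.67), Fbxo5, an inhibitor of the anaphase-promoting complex (2.33 and 2.06), Cdc20, its mitotic activator (2.21 and 1.36), and Ube2c, its ubiquitin-conjugating enzyme (2.28 and 1.15).

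The general S phase list rose in full, 42 of 42 in each genotype, with medians of 3.63 in WT and 2.83 in AppSAA mice. Of the 47 genes of G2 and mitosis, 44 were higher in each genotype, with medians of 2.98 and 2.13, and 0 were lower in WT and 1 in AppSAA mice. Among the largest changes were Dtl (5.04 and 4.01), which marks replication factors for destruction, and Hells (5.08 and 4.00), a chromatin remodeler, in the S phase list. Bub1 (4.25 and 3.10), a spindle checkpoint kinase, and Top2a (3.91 and 2.91), which untangles sister chromosomes, were among them in the other list. Under isotype control, 27 of the 47 genes of G2 and mitosis were higher in AppSAA than in WT mice and 3 lower (median 0.66), and 16 of the 42 S phase genes were higher and 0 lower (median 0.32), where 14.4% of all genes were higher and 13.7% lower. Under ATV:4D9, 23 of the 42 S phase genes were lower in AppSAA than in WT mice and 0 higher (median -0.38), and 6 of the 47 were lower and 1 higher (median -0.15), where 3.98% of all genes were lower and 7.84% higher. These lists were measured in the same cells as the cyclins and are not independent support for them. The other cyclin-fold genes, most of which work outside the cycle, had calls in both directions. Of 12 tested of 15, 2 were higher and 5 lower in WT mice (median -0.24), where 30.8% and 32.5% of all genes were. In AppSAA mice 2 were higher and 4 lower (median -0.02), where 27.9% and 27.1% of all genes were. Ccng2, a cyclin known from non-dividing cells, fell by 1.65 in WT and by 1.19 in AppSAA mice on the log2 scale.

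The genes most like each phase's cyclin were listed by Pearson's r over the 20 mice among 8023 genes with a mean of at least 10 CPM, with the 9 cyclins themselves left out. They describe a pattern set by the 5 groups and carry no test. Nearest to Ccne1 were Pclaf (r = 0.998), Dut (0.997) and Chaf1a (0.997), which act at the replication fork or in nucleotide supply. Nearest to Ccna2 were Birc5 (0.993), Csrp1 (0.992) and Cdca3 (0.992), and nearest to Ccnb1 were Cenpe (0.981), Cenpf (0.976) and Prc1 (0.962), which work on the mitotic spindle and kinetochore. Nearest to Ccnd1 were none of the cycle genes but Actb, the cytoskeletal actin (0.987), Snx2 (0.982) and Ehd1 (0.982), both of the endosome. Among the 9 cyclins the same measure was 0.997 between Ccne1 and Ccne2 and 0.952 between Ccnb1 and Ccnb2, against 0.705 between Ccne1 and Ccnb2 and 0.570 between Ccnd1 and Ccnb2. All 20 points share the pools and the depth differences given above.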

How the data were processed

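Myeloid cells sorted from mouse brain were profiled with a 10x Genomics Chromium 3′ assay in 4 pools with CellPlex sample tags, and the pool and mouse of each cell were read from the deposited cell annotation. The deposited matrix holds UMI counts per gene and cell, which the authors made with Cell Ranger 6.1.1 on the mm10 build, per the submitters' processing notes, and analyzed in Seurat. The deposited annotation also gives the clusters, the counts per cell and the percent of mitochondrial reads (medians of 1.01% to 2.09% per mouse), each computed by the authors. No further filter on cells was applied and no doublet caller was run.

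The counts of a mouse, or of its cells in a cluster where there were at least 20, were added up and fitted with edgeR 4.0.16 (R 4.3.3; TMM, filterByExpr, quasi-likelihood test, 1 fit over all 20 mice) with Benjamini-Hochberg adjustment over all genes tested and a threshold of 0.05. limma-voom (limma 3.58.1), the study's own method, and DESeq2 1.42.0 were alternatives, with other scaling, no low-count filter, the pool as a block and each mouse left out in turn. Within clusters, 1 fit per cluster held all groups with sums of at least 20 cells there. CPM values divide by all UMIs of the mouse or the mouse and cluster. Shares of cells and ratios were compared with exact two-sided permutation tests (scipy 1.17.1), standard errors come from the fold change and its F statistic, and 95% intervals use the t quantile at the fit's degrees of freedom. UMIs of 17150296 to 102446549 per mouse set the counting precision, so that 1 UMI was worth far less than 1 CPM in sums over all cells.

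Replicate numbers name the pools, and each pool held 1 mouse of every group, so the numbers pair the mice. Deviations from group means correlated at 0.144 to 0.607 in all 40 same-pool pairs and at -0.514 to 0.249 in 120 pairs from different pools. Mice are separate animals. The 9 cyclins and the gene lists were chosen with earlier results of these data known, and the finer clusters were tested after their values had been seen. From each list, at most the 3 genes with the largest change among those that passed in a comparison were eligible to be named. The fits were tested on simulated data with known fold changes.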

Additional observations from a re-analysis of the deposited data

Results flagged for a closer look

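Of 65 groups of 4 mice checked, 3 held a mouse that stood apart from the other 3, and chance gives about 1 in 20 such groups. Ccnd3 was 29.5 CPM in AppSAA isotype replicate 4, above the 26.5 to 26.8 CPM of the other mice. Ccnf was 1.82 CPM in AppSAA 4D9 replicate 1, below 2.67 to 2.83 CPM. Ccnb2 was 8.51 CPM in AppSAA ATV:4D9 replicate 4, above 7.55 to 7.67 CPM.

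The response to ATV:4D9 differed between genotypes by the interaction term for Ccne1 (-0.88, adjusted p = 0.0273), Ccne2 (-0.82, adjusted p = 0.0325), Ccna2 (-1.03, adjusted p = 0.0397) and Ccnb2 (-1.11, adjusted p = 0.0299), on the log2 scale and in edgeR's quasi-likelihood test. The groups behind these values were of 4 mice each, and each call was lost when some single mice were left out, in 5, 5, 10 and 7 of 20 such fits. The isotype levels of each genotype enter the interaction. Between the ATV:4D9 groups themselves, in the same test, Ccne2 was lower in AppSAA mice (-0.44, adjusted p = 0.0405). Ccne1 (-0.31, adjusted p = 0.168), Ccna2 (-0.07, adjusted p = 0.899) and Ccnb2 (0.27, adjusted p = 0.480) did not pass.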

How the results depend on the processing

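All 9 cyclins passed for ATV:4D9 against isotype control in both genotypes and against 4D9 with RLE size factors, no low-count filter, DESeq2, limma-voom, the pool as a block and scaling by UMIs per cell, and 0 of 9 passed for 4D9 against isotype control under each. For AppSAA against WT mice under isotype control, 3 passed with limma-voom and 6 with UMIs per cell. Between the ATV:4D9 groups the count was 0 without the filter, 2 with limma-voom, 3 with the pool as a block and 0 with UMIs per cell. For the interaction it was 1 with limma-voom, 4 without the filter and 5 with RLE, DESeq2, the block and UMIs per cell, which each also called Ccnf. With the pool as a block, 1 cyclin passed in each of clusters 0, 3 and 1, 4 in cluster 5, 5 in finer cluster 4 and 2 in finer cluster 7 (AppSAA against WT), and with at least 50 cells 1 passed in cluster 2. The comparison with AppSAA isotype mice in finer cluster 7 could not be fitted with at least 50 cells. Beside these counts, the Ccnf interaction and the exact tests below, the block changed no other call. The cause of these changes was not tested.

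Over all genes, the block called 7166 genes in place of 3960 between genotypes under isotype control, 4409 in place of 1661 between the ATV:4D9 groups and 4284 in place of 1285 for the interaction, UMIs per cell called 838 between the ATV:4D9 groups and 2234 for the interaction, and DESeq2 called 1 in place of 0 for 4D9. Between the ATV:4D9 groups limma-voom called 1872 genes, DESeq2 2042, RLE size factors 1664 and no low-count filter 1422. For the interaction these settings called 1214, 1615, 1270 and 1108 genes. UMIs per cell moved the median of all genes to 0.79 in WT and 0.47 in AppSAA mice for ATV:4D9 against isotype control, to 0.42 for ATV:4D9 against 4D9, to 0.18 between genotypes under isotype control, to -0.12 between the ATV:4D9 groups and to -0.30 for the interaction.

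Some differences that had not passed changed sign. With UMIs per cell, Ccnd1 and Ccnd3 were at 0.10 and 0.14 between genotypes under isotype control, Ccnd3 and Ccne2 at 0.034 and 0.026 for 4D9, Ccnd1 and Ccnd3 at -0.0057 and -0.11 between the ATV:4D9 groups, and Ccnd1, Ccnd2 and Ccnd3 at -0.10, -0.25 and -0.25 for the interaction. Ccnd3 between the ATV:4D9 groups was at -0.00997 with RLE, -0.0031 without the filter, -0.0102 with DESeq2, -0.021 with limma-voom and -0.0092 with the block. Of 57 sign changes the largest value was 0.36, and the smallest adjusted p was 0.241.

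With each mouse left out, 3 to 5 cyclins passed between genotypes under isotype control, 0 to 1 between the ATV:4D9 groups, 0 to 5 for the interaction, 0 to 1 in clusters 0 and 1, 2 to 4 in clusters 4 and 5, and 0 to 1 in finer clusters 4 and 7 (AppSAA against WT). The 1 call came without WT isotype replicate 1 in cluster 0, AppSAA ATV:4D9 replicate 1 in cluster 1, AppSAA ATV:4D9 replicate 2 or WT ATV:4D9 replicate 1 in finer cluster 4, and WT ATV:4D9 replicate 1 in finer cluster 7. Log2 values that changed sign ran from -0.24 to 0.034 (Ccnd1) and -0.14 to 0.0017 (Ccnd3) between genotypes under isotype control. For 4D9 they ran from -0.055 to 0.090 (Ccnd1), -0.45 to 0.056 (Ccnd2), -0.039 to 0.025 (Ccnd3), -0.059 to 0.15 (Ccne1), -0.15 to 0.12 (Ccne2) and -0.037 to 0.10 (Ccnf). Between the ATV:4D9 groups they ran from -0.026 to 0.20 (Ccnd1), -0.22 to 0.14 (Ccnd3), -0.20 to 0.088 (Ccna2) and -0.15 to 0.00043 (Ccnf), and for the interaction from -0.36 to 0.32 (Ccnd2) and -0.13 to 0.23 (Ccnd3).

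The exact tests made the same calls with cells thinned to 3000 or 8000 UMIs or not thinned. At 8000 UMIs, 5565 WT isotype cells were left out and 4291 kept, against 1708 left out and 14234 kept in WT ATV:4D9 mice. The groups were thus reduced unequally at that depth. Exact permutation by sign flips within pools, the replicate block of these tests, cannot go below p = 0.125 (adjusted p = 0.167), so that no call could pass. The differences themselves were 26.7, 16.6, 16.8 and -10.0 points for the E cyclin share, 9.60, 7.24 and 6.90 points for the later share, -2.31, -2.63 and -3.01 for the B to E log2 ratio, and 3.70, 0.60, 2.62 and 2.65 for the E to D log2 ratio. With 1 mouse left out, 3 against 4 cannot go below 0.0571. The E cyclin share differences then ran from 25.9 to 27.5 points (WT), 16.0 to 17.7 (AppSAA against isotype), 16.2 to 17.9 (against 4D9), -10.8 to -8.97 (against WT) and -0.102 to 0.243 (between genotypes under isotype control), and the later share from 8.89 to 10.2, 6.89 to 7.53 and 6.55 to 7.19. The B to E ratio ran from -2.62 to -2.01, -2.74 to -2.48 and -3.13 to -2.89, and the E to D ratio from 3.62 to 3.78, 2.48 to 2.74, 2.50 to 2.77, 0.54 to 0.68 (between genotypes under isotype control) and -0.12 to 0.074 (4D9).

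The lowest levels were those of Ccnd2 and, in WT isotype mice, Ccnb1, down to 0.525 and 0.586 CPM.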
